A study of Mus musculus with 4 samples.

Results

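Gene expression was compared between the luminal epithelium, the sheet of cells that lines the uterine cavity, and the stroma beneath it in mouse uterus whose label gives a deletion of Msx1 and Msx2, 2 related homeobox genes. The comparison rests on 2 of the 4 libraries of the series, 1 for each compartment. Levels are in RPKM, reads scaled to the length of the transcript and to the mapped reads of the library. A gene was taken in when it reached 1 RPKM in either library, which kept 9559 of 23235 genes, of which 8661 had an ordinary gene name and 898 were small RNA genes or unnamed models. Of the kept genes, 5900 reached 1 RPKM in both compartments, 1883 in the epithelium only and 1776 in the stroma only. For each gene the difference is log2((epithelium + 1)/(stroma + 1)), lowered by 0.30, its median over those 5900 genes, because the 2 tables had been scaled separately. A positive difference therefore means higher in the epithelium relative to the genes that both compartments expressed. A gene is called higher in a compartment when the centred difference is at least 1 in size. A gene under 1 RPKM in 1 compartment was kept only through the other, so its side is largely set by the filter.

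RNA was collected from uteri on day 4 after the females had mated with vasectomized males, which makes them pseudopregnant without embryos. Each compartment was cut out of tissue sections by laser capture microdissection, and libraries were made from total RNA after ribosomal RNA had been depleted. The 4 groups, with 1 library each, were luminal epithelium and stroma from a uterus labelled Msx1 d/d Msx2 d/d (knockout, uterine-specific) and the same compartments from a uterus labelled Msx1 f/f Msx2 f/f, the floxed control in which both genes carry sites for the Cre recombinase but are not deleted. The design text speaks of 1 mouse of each genotype. The sources used here do not give the Cre driver, the age of the mice or whether 1 mouse supplied both compartments. With 1 library a group the samples allow no test, no value has a replicate, and "higher" describes these libraries only.

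The luminal epithelium is a polarised sheet sealed by tight junctions, and it is the surface to which an embryo first attaches. The stroma consists of fibroblasts in a collagen-rich matrix, with blood vessels and immune cells among them. The compartments act on each other before implantation: epithelial Indian hedgehog signals to receptors on stromal cells under the control of progesterone, and stromal factors in turn restrain the proliferation of the epithelium.

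The depth of the libraries in M reads, estimated from the steps between low values, was 90.9 for the epithelium and 61.3 for the stroma labelled knockout, and 6.31 and 42.8 for the control epithelium and stroma. The control epithelium was thus the shallow library, and a value of 0 there says little. Msx1, the targeted gene, stood at 13.6 and 0.0207 RPKM in the epithelium and stroma labelled knockout and at 23.2 and 0.0467 in the controls. Msx2 stood at 2.06 and 0.0564 RPKM labelled knockout and at 1.31 and 0.135 in the controls. Msx1 was higher in the epithelium than in the stroma in both genotypes, with differences, on the centred log2 scale, of 3.54 and 4.23, while Msx2 had 1.23 labelled knockout and 0.72 in the control, which is under the threshold of 1. The tables list an antisense gene, Msx1as, at the same locus as Msx1. Msx1 was lower and Msx2 higher in the epithelium labelled knockout than in its control, so Msx2 goes against the label. The RPKM covers the whole gene, and the deleted part was not stated, so these values do not test the deletion and the libraries are called "labelled knockout". Levels are given with the epithelium first and the stroma second, in the libraries labelled knockout unless the control is named.

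Marker genes set the 2 captures far apart. All 12 general epithelial markers were higher in the epithelium, and all 12 stromal markers in the stroma, against 13.3% and 17.2% of all kept genes that were higher in the epithelium and in the stroma. The epithelial markers summed to 526 RPKM in the epithelium and 0.565 in the stroma, so the stroma held 0.107% of their level. Each of them therefore passed the filter through the epithelium alone, as most stromal markers did through the stroma. The stromal markers summed to 7.91 and 582 RPKM, so the epithelium held 1.36% of their level. In the controls the same shares were 0.400% and 3.63%. For smooth muscle and pericyte markers the epithelium held 1.42% of the stromal level labelled knockout and 10.7% in the controls, where Acta2, smooth muscle actin, stood at 1.91 and 5.58 RPKM against 0.0261 and 8.21 RPKM labelled knockout. In the controls Tagln stood at 1.09 and 1.03 RPKM, Actg2 at 0.805 and 0.0199 RPKM and Cnn1 at 0.154 and 0.0584 RPKM. The other members of that list were higher in the control stroma, led by Rgs5, listed at 0 and at 25.7 RPKM. The stroma library labelled knockout was not fibroblasts alone. All 10 kept endothelial markers and all 6 kept smooth muscle and pericyte markers were higher in it, and so were 10 of 13 kept leukocyte markers. No endothelial or smooth muscle and pericyte marker reached 1 RPKM in the epithelium. Each kept one therefore passed the filter through the stroma alone, which set its side. The summed smooth muscle and pericyte markers stood at 0.684 and 48.2 RPKM, the summed endothelial markers at 0.969 and 55.7 RPKM and the summed leukocyte markers at 44.6 and 78. Most of that epithelial leukocyte sum came from Cd14 at 32 and Cd52, a surface glycoprotein, at 9.01 RPKM, and every other leukocyte marker was under 1 RPKM there. In such mixed captures, fewer cells of a type and less RNA per cell cannot be told apart.

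Of 10 luminal epithelial markers 8 were kept, and 7 of these were higher in the epithelium and none in the stroma. Among them Irg1, which makes itaconate, stood at 98.6 and 0.0398 RPKM and Calb1, a calcium-binding protein, at 82.6 and 0.00663 RPKM. No luminal marker reached 1 RPKM in the stroma, so each kept one passed the filter through the epithelium alone. The luminal markers Calca and Krt13 were not kept. Calca was listed at 0 in the epithelium and at 0.129 RPKM in the stroma, and Krt13 stood at 0.155 and 0.103 RPKM. Of 10 glandular markers only 2 were kept, Ltf at 41.8 and 0.0058 RPKM and Aldh1a1 at 4.86 and 0.0968 RPKM. Ltf, lactoferrin, is also made by luminal cells under estrogen. Foxa2, the transcription factor that defines uterine glands, stood at 0.0312 and 0 RPKM, and Spink3, Prss28 and Prss29, gland products, were listed at 0 in both libraries. None of the 5 listed red cell markers and no neural or glial marker reached 1 RPKM. The globin genes Hbb-b1 and Hba-a1 were not listed. Hbb-b2 stood at 0.00137 and 0.00011 RPKM and Hba-a2 at 0.00263 and 0.00015 RPKM. These lie under the value of 1 read on a transcript of 1 kilobase, 0.0110 and 0.0163 RPKM, so they say little on red cells. The leukocyte gene on the epithelial side was Cd14, which senses bacterial lipopolysaccharide, at 32 and 0.326 RPKM, while the pan-leukocyte gene Ptprc stood at 0.0379 and 1.94 RPKM.

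**Figure D1:**
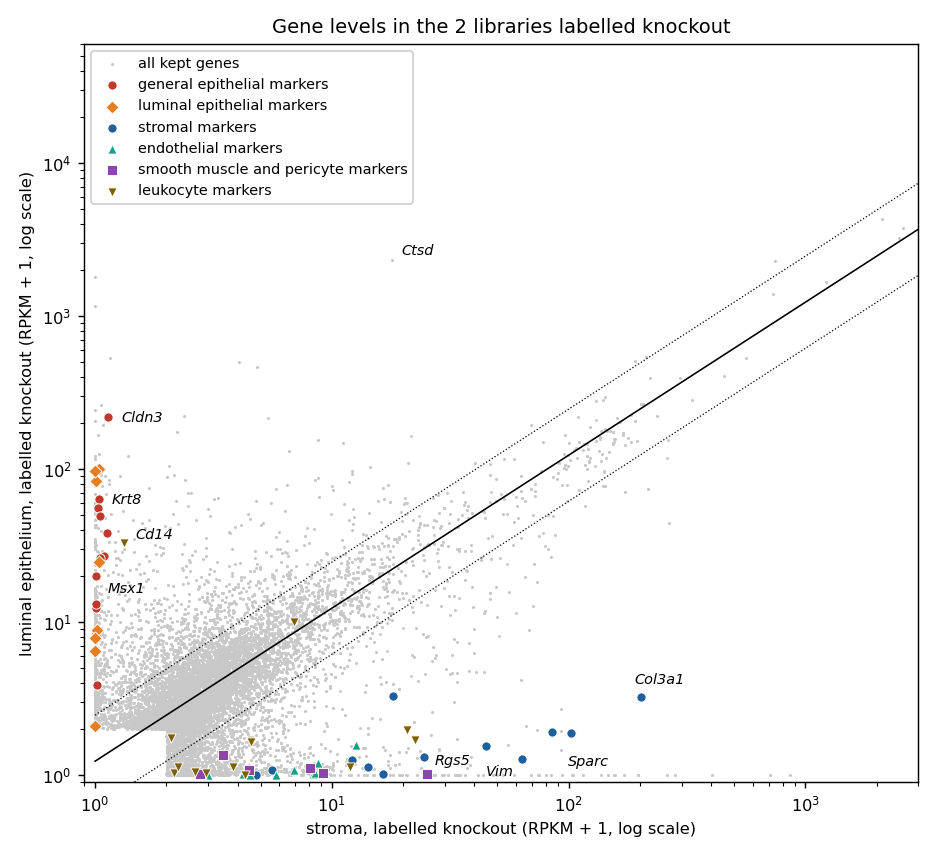
Level of each kept gene in the stroma (horizontal) and luminal epithelium (vertical) labelled knockout, as RPKM + 1 on log axes, with marker genes coloured by cell type. The solid line is the centred difference of 0 and the dotted lines are differences of 1 and -1; epithelial markers lie along the left edge, and stromal, endothelial and smooth muscle markers along the bottom.

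Across all kept genes, 1273 were higher in the epithelium (13.3%) and 1647 in the stroma (17.2%), and the rest, the larger share, lay within the threshold. The counts of list members given below are to be read beside these 2 shares. Without centring the counts were 1847 and 1226, and with centring kept they were 893 and 456 with a minimum of 5 RPKM and 560 and 378 with a pseudocount of 5 RPKM. Which compartment had more thus depended on how the tables were scaled to each other and on how low values were treated. The median difference was -0.02, and the 5th and 95th percentiles were -2.06 and 1.95. With a difference of at least 2 the counts were 463 (4.84%) and 505 (5.28%), and with at least 3 they were 224 (2.34%) and 213 (2.23%). The counts of genes all but missing from the other compartment differed. Of the 993 named genes at 10 RPKM or more in the epithelium, 65 were under 0.1 RPKM in the stroma, while of the 512 named genes at 10 RPKM or more in the stroma, 7 were under 0.1 RPKM in the epithelium. The epithelium held 1.36% of the stromal marker level, and the stroma 0.107% of the general epithelial marker level. The part of these unequal shares in the counts was not tested.

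Lars2, a mitochondrial tRNA synthetase, had the largest listed difference of the genes with ordinary names, with 1156 RPKM in the epithelium and 0 in the other 3 libraries, but its value was marked in the tables as a locus too deep to estimate, and it is not read as a difference. Among the other named genes the largest difference on the epithelial side was that of Fxyd4, a small regulator of the sodium pump, at 531 and 0.152 RPKM and 323 and 0.291 in the controls. It lies at chr6:117883577-117887353 (mm9, the build of the deposited tables). Without a pseudocount, and after division by the centring ratio of 1.23, its level was 2844-fold (95% limits 1011 to 12671) higher in the epithelium. These limits are exact binomial (Clopper-Pearson) limits on estimated reads; they cover counting error only and treat amplified reads as independent molecules. Behind it came S100g, an intracellular calcium-binding protein, at 263 and 0.0608 RPKM, the tight junction protein Cldn3 at 218 and 0.138 RPKM, and Hdc, which makes histamine, at 192 and 0.0842 RPKM. Wfdc2, a secreted protease inhibitor, stood at 166 and 0.028 RPKM.

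The endocytic receptor Lrp2, also known as megalin, stood at 125 and 0.0345 RPKM and lies at chr2:69262392-69424124; its level was 2936-fold (95% limits 2083 to 4285) higher in the epithelium. Ctsd, a lysosomal protease, was the most abundant named gene that differed, with 2312 and 17 RPKM, a 111-fold (95% limits 106 to 116) excess. The metallothioneins Mt1 and Mt2, which bind zinc and copper, stood at 499 and 3.06 RPKM and at 223 and 1.38 RPKM, and Slc39a4, a zinc importer, at 76.7 and 0.0694 RPKM. The 20 leading names also hold Gstm2, a glutathione transferase, at 463 and 3.84 RPKM and Ovgp1, the oviductal glycoprotein, at 89.2 and 0.10 RPKM. Sprr2f, a small proline-rich protein, stood at 95.8 RPKM in the epithelium and was listed at 0 in the stroma. High abundance alone did not separate the compartments. Eef1a1, the translation elongation factor, stood at 531 and 561 RPKM, Actb, cytoplasmic actin, at 221 and 235 RPKM, and Malat1, a nuclear noncoding RNA, at 265 and 206 RPKM. Gsto1, another glutathione transferase among the most abundant genes, stood at 214 and 4.38 RPKM.

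On the stromal side the leading gene was Sparc, which binds collagen in the matrix, at 0.465 and 91.7 RPKM and 1.84 and 54.1 in the controls. It lies at chr11:55208003-55233582 and was 243-fold (95% limits 197 to 303) higher in the stroma. Col3a1, the chain of type III collagen, stood at 2.25 and 202 RPKM, lies at chr1:45368383-45406551, and was 110.2-fold (95% limits 104 to 117) higher. Vim, the intermediate filament of mesenchymal cells, stood at 0.266 and 62.4 RPKM and Lgals1, a galectin, at 1.69 and 91.5 RPKM. Of the 20 leading stromal names, 7 were collagen chains. The others include Igfbp7, an insulin-like growth factor binding protein, at 0.934 and 91.5 RPKM, Fn1, fibronectin, at 0.31 and 37.8 RPKM, Fstl1, a secreted follistatin-like protein, at 0.114 and 36.2 RPKM, and Cd34, a surface protein of fibroblasts and endothelium, at 0.165 and 37.4 RPKM. Other cell types were also among them. Rgs5, a pericyte gene, stood at 0.022 and 24.3 RPKM, and Igj, the joining chain of secreted antibodies, at 0.576 and 54.2 RPKM.

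The epithelial structure genes were described in 6 lists, from the cytoskeleton outward to the apical surface. Of 14 keratins, the intermediate filaments of epithelia, 4 were kept and all 4 were higher in the epithelium, with a median of 5.14. All 14 summed to 0.521 RPKM in the stroma, so each kept keratin passed the filter through the epithelium alone. Krt8 stood at 62.7 and 0.0415 RPKM, its partner Krt18 at 37.5 and 0.118 RPKM, Krt19 at 55 and 0.0239 RPKM and Krt7 at 2.9 and 0.0198 RPKM. These are the keratins of simple, single-layered epithelium. Krt13, a keratin of layered epithelium that was also on the luminal marker list, stood at 0.155 and 0.103 RPKM. Krt5, its basal counterpart, stood at 0 and 0 RPKM.

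Claudins form the seal of the tight junction. Of 19 claudins 8 were kept, 6 higher in the epithelium and 1 in the stroma, with a median of 3.12; over all 19, most of them near 0 in both libraries, the median was -0.26. Cldn3 led, followed by Cldn7 at 48.1 and 0.0451 RPKM, Cldn23 at 28.1 and 0.0667 RPKM and Cldn1 at 15.8 and 0.785 RPKM. In the controls these 3 stood at 35.9 and 0.107, 10.4 and 0.0168 and 1.48 and 0.708 RPKM. The stromal one was Cldn5, the claudin of endothelium, which was listed at 0 in the epithelium and at 1.16 RPKM in the stroma.

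Among 25 kept tight junction scaffold and polarity genes, 15 were higher in the epithelium and 1 in the stroma. The junctional adhesion molecules fell on opposite sides, with Jam2 at 88 and 1.02 RPKM and Jam3 at 0.0534 and 3.87 RPKM. Crb3, the apical polarity determinant, stood at 10.1 and 0.0349 RPKM, Inadl, a scaffold of the same complex, at 12.8 and 0.364 RPKM, and Ezr, which ties membrane to actin, at 16.7 and 0.547 RPKM. Not all scaffold genes differed: Tjp1, the classic ZO-1 plaque protein, stood at 4.54 and 3.65 RPKM, a difference of -0.05. The ezrin family showed the same kind of division, since its member Msn stood at 0.119 and 10.8 RPKM and Rdx at 40.0 and 6.87 RPKM.

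Cell adhesion genes were divided by partner. The adherens junction cadherin Cdh1 stood at 25.3 and 0.0521 RPKM and the epithelial adhesion molecule Epcam at 26.2 and 0.0917 RPKM, whereas Cdh11, a mesenchymal cadherin, stood at 0.41 and 19.5 RPKM and Cdh5, that of endothelium, at 0.0273 and 7.53 RPKM. The catenin Ctnnb1, which helps to join these cadherins to the cytoskeleton, stood at 33.3 and 22.1 RPKM, a difference of 0.27. Over the 16 kept adherens junction genes, 6 were higher in the epithelium and 4 in the stroma. Of 7 kept desmosome genes, 5 were higher in the epithelium and none in the stroma, among them Ppl, periplakin, at 7.22 and 0.0285 RPKM, Dsp, desmoplakin, at 5.66 and 0.00596 RPKM, and Dsg2, a desmosomal cadherin, at 3.74 and 0.00684 RPKM. Apical genes were fewer. Muc1, a membrane mucin, stood at 3.26 and 0.0815 RPKM, and Cd24a, a small surface glycoprotein, at 56.6 and 1.47 RPKM.

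**Figure D2:**
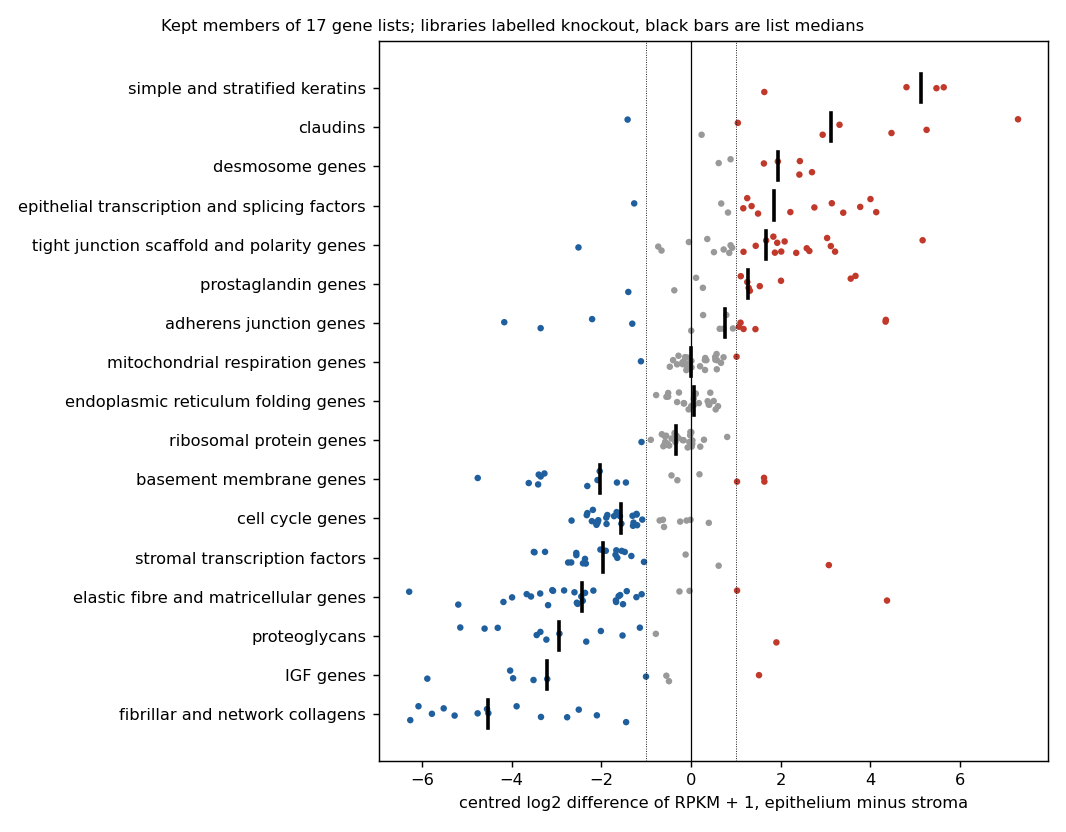
Centred log2 differences, luminal epithelium minus stroma, of the kept members of 17 gene lists in the libraries labelled knockout. Each point is a gene, red where it is 1 or more, blue where it is -1 or less and grey between, and the bars are list medians; collagens lie wholly on the stromal side, keratins wholly on the epithelial side, and respiration and folding genes around 0.

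Promoters of the kept named genes were read for 28 short motifs, and CACCTG was singled out after the shares of all of them had been seen. CACCTG is an E-box that Zeb and Snail family factors can bind. Zeb1 stood at 0.0187 and 2.36 RPKM, Zeb2 at 0.0396 and 3.29 RPKM, Snai2 at 0.204 and 2.65 RPKM and Snai1 was listed at 0 in the epithelium and at 1.54 RPKM in the stroma; Zeb1, Zeb2 and Snai2 were named after their values were seen. The windows are RefSeq promoters of GRCm38.p6, from 250 bases before to 50 after a start, and a gene counted once if any of its windows held the letters on either strand. They cover 7002 of 8661 kept named genes, but 303 of the 397 named genes higher in the epithelium by at least 2 (4.58% of kept named genes) and 303 of the 417 higher in the stroma by as much (4.81%), so the shares describe only genes with a window. These are 76.3% and 72.7% of the 2 sets, under the 80% set for a check of base composition, which is void for that reason. As a description, the first windows of those epithelial genes had a mean GC content of 60.6% and a mean of 18 CpG, those of the stromal genes 58.3% and 15.3, and those of all kept named genes 61.3% and 22.2. The part of these differences in the motif shares was not tested.

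CACCTG was found in 122 of those 303 genes (40.3%) and in 62 of 138 genes (44.9%) higher in the epithelium by at least 3, a set of 179 named genes (2.07%). Genes with a difference of 1 to 2 held it in 28.7% and genes within 1 of 0 in 18.6%. On the stromal side the shares were 17.4% for differences of 1 to 2 and 14.5% for at least 2, which is 44 of 303 genes. For at least 3, a set of 142 named genes (1.64%), the share was 17 of 99 genes (17.2%). All kept named genes held it in 20.1%, and all genes of the promoter table in 22.6%. Among genes with a window, the share was thus higher at larger epithelial differences, and the stromal shares all lay under that of all kept named genes. Other orders of the same letters gave smaller excesses: in the genes higher in the epithelium by at least 2, CTGCCA was in 25.1% against 25.0% of all kept named genes, CATGCC in 11.6% against 10.6%, and CCTGCA in 32.7% against 23.2%. CAGCTG, another E-box, was in 25.1% of those epithelial genes and 23.1% of the stromal ones, against 16.9%. On the stromal side the TATA box letters TATAAA were in 19.8% of the genes with a difference of at least 2, against 8.74% of all kept named genes and 12.5% of the epithelial genes.

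The stretches that follow show the match, in capitals, in promoters of epithelial genes with large differences, from 5′ to 3′ on the gene's strand, with coordinates of GRCm38.p6. CAGGTG is the same motif read on the other strand. Each stretch ends before the RefSeq start of its window. Of 33 epithelial genes looked up, which were chosen after their levels were seen, 18 had a window and 15 of those held the motif, and of 6 stromal genes 4 had a window and 1, Sparc, held it. Because these genes were picked, the 2 counts are no estimate of a share. The shares were 44.9% of genes higher in the epithelium by at least 3 and 20.1% of all kept named genes. Krt8 (chr15:102004418-102004483, minus strand) and Krt18 (chr15:102027972-102028037, plus strand) are the paired keratins, Epcam (chr17:87635762-87635827, plus strand) is an adhesion protein, Lsr (chr7:30973503-30973568, minus strand) seals the points where 3 cells meet, and Elf3 (chr1:135258577-135258642, minus strand) is an epithelial transcription factor. Rab25 (chr3:88548308-88548373, minus strand) and Ap1m2 (chr9:21312379-21312444, minus strand) direct apical and basolateral trafficking, and Spint2 (chr7:29282016-29282081, minus strand) inhibits membrane proteases.
Krt8: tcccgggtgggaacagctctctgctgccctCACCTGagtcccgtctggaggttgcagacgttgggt
Krt18: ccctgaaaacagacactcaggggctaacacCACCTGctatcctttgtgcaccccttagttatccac
Epcam: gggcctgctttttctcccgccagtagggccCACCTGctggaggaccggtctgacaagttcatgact
Lsr: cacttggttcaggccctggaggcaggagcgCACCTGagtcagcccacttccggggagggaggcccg
Elf3: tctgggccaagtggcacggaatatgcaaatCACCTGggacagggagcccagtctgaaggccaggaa
Rab25: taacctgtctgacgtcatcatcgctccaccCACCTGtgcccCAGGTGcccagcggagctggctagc
Ap1m2: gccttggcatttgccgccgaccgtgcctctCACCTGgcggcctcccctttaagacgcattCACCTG
Spint2: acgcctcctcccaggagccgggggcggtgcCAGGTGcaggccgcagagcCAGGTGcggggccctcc

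Lsr stood at 10.3 and 0.471 RPKM. Rab25 and Ap1m2, named after their values were seen, stood at 12.8 and 0.0683 RPKM and at 12 and 0.0407 RPKM. The whole 250 bases before the first start of Crb3 (chr17:57061951-57062200, plus strand) hold the motif 3 times. For comparison, the same interval before the start of the stromal filament gene Vim (chr2:13574061-13574310, plus strand) does not hold these letters.
Crb3: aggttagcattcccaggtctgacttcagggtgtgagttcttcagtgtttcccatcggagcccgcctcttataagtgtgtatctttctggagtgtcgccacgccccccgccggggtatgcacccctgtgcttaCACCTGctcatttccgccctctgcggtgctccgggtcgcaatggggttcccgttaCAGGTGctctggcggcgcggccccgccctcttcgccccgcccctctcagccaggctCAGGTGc
Vim: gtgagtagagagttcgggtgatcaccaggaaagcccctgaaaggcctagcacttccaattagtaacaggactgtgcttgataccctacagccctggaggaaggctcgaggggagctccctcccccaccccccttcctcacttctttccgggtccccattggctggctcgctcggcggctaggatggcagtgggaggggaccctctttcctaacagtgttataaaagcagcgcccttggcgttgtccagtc
A match describes the letters and is neither a bound site nor a cause, and 3 epithelial genes with a window, Spint1, Fxyd3 and the junction gene Cgn, held no match; the first 2 stood at 9.58 and 0.0451 RPKM and 32.5 and 0.214 RPKM.

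Transcription factors were divided by compartment. Of 14 kept epithelial transcription and splicing factors 11 were higher in the epithelium, with a median of 1.85. Sox17, a SOX factor known in uterine epithelium, stood at 41.6 and 0.978 RPKM, Elf3 at 18.9 and 0.0084 RPKM and Ehf, its relative, at 16.1 and 0.0173 RPKM. Esrp1, the epithelial splicing regulator, stood at 12.1 and 0.00919 RPKM and Grhl2, a grainyhead factor that maintains junction genes, at 7.34 and 0.00658 RPKM. Pax8 and Pax2, factors of the Müllerian duct from which the uterus forms, were listed at 0 in the stroma and at 9.85 and 1.18 RPKM in the epithelium. Klf4 ran the other way at 0.244 and 1.43 RPKM.

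Of 22 kept stromal transcription factors 19 were higher in the stroma and 1 in the epithelium, with a median of -1.96. Osr2 stood at 0.499 and 12.8 RPKM, Twist2, a mesenchymal factor, at 0.0334 and 8.43 RPKM, and Hand2, the progesterone-induced factor that curbs growth factor output of the stroma, at 0.0771 and 4.57 RPKM. In the controls Hand2 stood at 0.524 and 4.8. Tcf21 was listed at 0 in the epithelium and at 3.78 RPKM in the stroma. The exception was Gata2, a factor needed for the response to progesterone, at 37.4 and 2.71 RPKM, and Meis1 stood at 4.66 and 2.0 RPKM. Nr2f2, also called COUP-TFII, which relays hedgehog signals in the stroma, stood at 3.36 and 9.34 RPKM, so the epithelium also held it; it was named after its value was seen.

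Hox genes, which set position along the body axis, were divided by chromosomal cluster. All 3 kept HoxA genes and all 6 kept HoxD genes were higher in the stroma. In the epithelium the 11 listed HoxA genes summed to 0.772 RPKM and the 9 listed HoxD genes to 0.434. Each kept gene of these 2 clusters therefore passed the filter through the stroma alone. All 7 kept HoxB genes had a positive difference, and 4 of them passed 1. In the stroma the 10 listed HoxB genes summed to 1.78 RPKM, so most kept ones passed the filter through the epithelium alone. No HoxC gene was kept. Hoxa10, needed for decidualization, stood at 0.464 and 27.5 RPKM with 0.721 and 22.2 in the controls, Hoxa11 at 0.277 and 10.5 RPKM and Hoxd10 at 0.162 and 9.15 RPKM. Hoxb6 stood at 16 and 0.599 RPKM with 9.71 and 0.514 in the controls, and Hoxb7 at 4.74 and 0.0936 RPKM. The 4 libraries thus gave each of these 5 genes the same order of compartments. The grouping by cluster was made after the values had been seen. Among 12 other kept homeobox genes, Dlx5 and Dlx6, neighbours in the genome, were listed at 0 in the stroma and at 7.5 and 4.21 RPKM in the epithelium, and with Msx1 and Msx2 they were the 4 on the epithelial side. The 1 on the stromal side was Tgif2 at 0.232 and 2.04 RPKM.

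**Figure D3:**
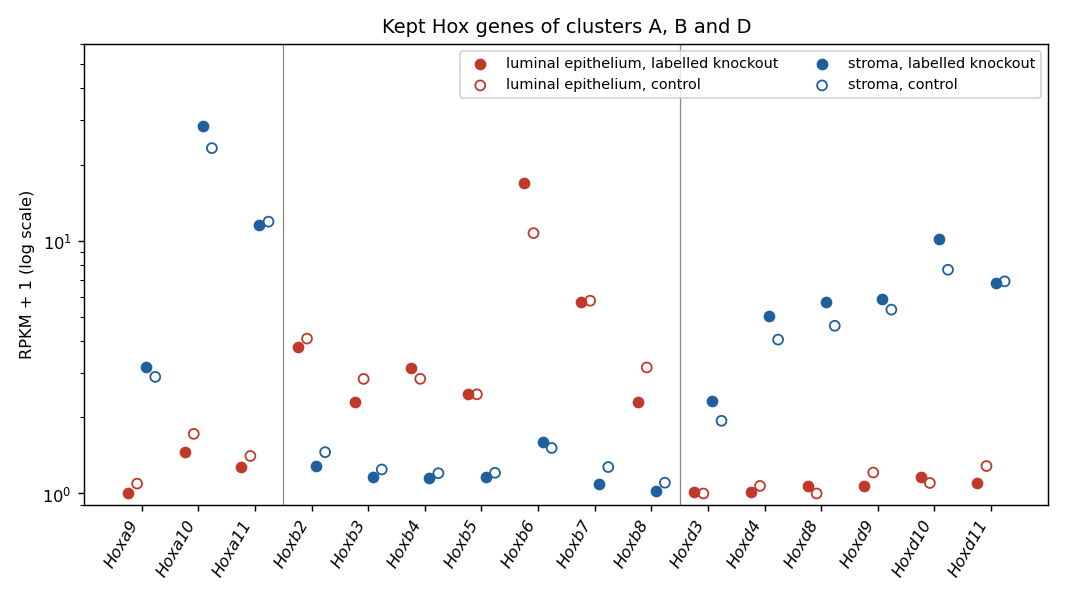
Levels of the 16 kept Hox genes, as RPKM + 1 on a log axis, in the 4 libraries, with clusters A, B and D separated by lines. Stroma lies above epithelium for every HoxA and HoxD gene shown, and epithelium above stroma for every HoxB gene, in both genotypes.

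Matrix genes were nearly all stromal. Each of the 14 kept collagen chains was higher in the stroma, with a median of -4.54. The type I chains Col1a1 and Col1a2 stood at 0.90 and 83.7 RPKM and at 0.872 and 102 RPKM, and the beaded type VI chains Col6a1, Col6a2 and Col6a3 at 0.971 and 72.2 RPKM, 1.1 and 64.9 RPKM and 0.319 and 23.6 RPKM. The control stroma held 32.9, 45.9, 29.6, 23.7 and 7.15 RPKM of these 5 chains, in that order, each below the stroma labelled knockout. Of 13 kept proteoglycans 11 were higher in the stroma, led by Dcn, decorin, at 0.554 and 43.6 RPKM, Srgn, the serglycin of granules in blood cells, at 0.712 and 32.8 RPKM and Lum, lumican, at 0.0227 and 15.5 RPKM. The 1 on the other side was Sdc4, a syndecan at the cell surface, at 27.5 and 5.18 RPKM.

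Of 30 kept elastic fibre and matricellular genes 26 were higher in the stroma and 2 in the epithelium. Fbn1, fibrillin, stood at 0.080 and 12.9 RPKM, and Postn, periostin, was listed at 0 in the epithelium and at 3.69 RPKM in the stroma. The largest exception among these matrix lists was Ctgf, connective tissue growth factor, at 40.3 and 0.622 RPKM and 40.1 and 0.37 in the controls, so it was higher in the epithelium of both genotypes. Its relative Cyr61, named after its value was seen, stood at 0.182 and 1.23 RPKM. The other exception, Spp1, osteopontin, is given with the comparison of genotypes. Thbs1, thrombospondin, stood at 7.4 and 7.16 RPKM, a difference of -0.26.

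The basement membrane lies between the compartments, and its chains were divided between them. Of 17 kept genes 11 were higher in the stroma and 3 in the epithelium. Among the epithelial ones were the laminin chains Lama5 at 7.82 and 1.32 RPKM and Lamb3 at 1.56 and 0.0226 RPKM. The laminin chain Lama2 stood at 0.0947 and 8.08 RPKM, the type IV collagens Col4a1 and Col4a2 at 3.69 and 39.5 RPKM and 1.23 and 21.2 RPKM, and the linker Nid1 at 0.325 and 28.1 RPKM. The shared gamma chain Lamc1 stood at 6.04 and 6.06 RPKM, a difference of -0.31. Endothelial and smooth muscle cells make several of these chains too, and their markers were all on the stromal side, with the sums given above; their part in these values was not tested. Integrins, the receptors for these chains, were found on both sides. Of 13 kept genes 3 were higher in the epithelium (23.1%) and 4 in the stroma (30.8%), against 13.3% and 17.2% of all kept genes. With so few members these counts are not read as a trait of the family. Itga9 stood at 8.33 and 0.436 RPKM, Itgb6 at 4.33 and 0.0273 RPKM and Itga6 at 14.2 and 4.67 RPKM, and on the other side Itgb3 stood at 0.0614 and 5.09 RPKM. Itgb1, the common beta chain, stood at 11.2 and 14.2 RPKM.

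Proteases were found on both sides. Mmp2, a gelatinase, stood at 0.427 and 22.7 RPKM, its inhibitor Timp2 at 0.0327 and 7.5 RPKM, and the aggrecan-cleaving Adamts1 at 0.102 and 6.96 RPKM, all higher in the stroma, where 12 of 25 kept members of the list were. The 6 epithelial members were Ctsb, a cathepsin, Plat, the tissue plasminogen activator, and the membrane-anchored serine proteases St14 and Prss8 with their inhibitors Spint1 and Spint2. Plat stood at 49.6 and 3.44 RPKM. St14 and Prss8 stood at 10.6 and 0.0946 RPKM and 11.6 and 0.0402 RPKM, and Spint2 at 43.3 and 0.582 RPKM, so protease and inhibitor were on the same side. Mmp15, a membrane metalloprotease, stood at 1.07 and 0.839 RPKM, within the threshold.

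The hedgehog pathway showed ligand and response on opposite sides. Ihh, the ligand, stood at 7.89 and 0.0227 RPKM and 3.84 and 0 in the controls, 282-fold (95% limits 98.7 to 1296) higher in the epithelium. Of 9 kept genes it was the 1 on the epithelial side, and 6 were stromal. Gli1, a transcription factor and target of the pathway, stood at 0.0856 and 8.24 RPKM and 0.135 and 4.99 in the controls, 119-fold (95% limits 82.8 to 176) higher in the stroma. The receptor Ptch1 stood at 0.989 and 5.29 RPKM, the transducer Smo at 1.15 and 6.72 RPKM, and the co-receptor Gas1 at 0.0049 and 3.26 RPKM. A different co-receptor, Cdon, stood at 1.55 and 0.276 RPKM, a difference of 0.70.

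Of 4 kept Wnt ligands, Wnt11 at 9.46 and 0.0129 RPKM and Wnt7a, at 5.45 RPKM and listed at 0 in the stroma of both genotypes, were epithelial. Wnt16 stood at 0.137 and 1.42 RPKM, and Wnt5a, a ligand of the non-canonical branch, stood at 14.6 and 12.1 RPKM, a difference of -0.04. Frizzled receptors were divided by gene. Fzd6 stood at 26.9 and 1.33 RPKM and the R-spondin receptor Lgr4 at 6.29 and 0.809 RPKM, while Fzd1 and Fzd2 stood at 0.368 and 4.19 RPKM and 0.673 and 4.88 RPKM. Secreted Wnt antagonists of the Sfrp and Dkk families were stromal: Sfrp2 stood at 0.111 and 7.08 RPKM, Dkk3 at 0.0238 and 3.34 RPKM, Frzb at 0.013 and 1.78 RPKM, and Sfrp4 was listed at 0 and at 1.91. Over the list of antagonists and targets 5 of 7 kept genes were higher in the stroma and none in the epithelium.

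**Figure D4:**
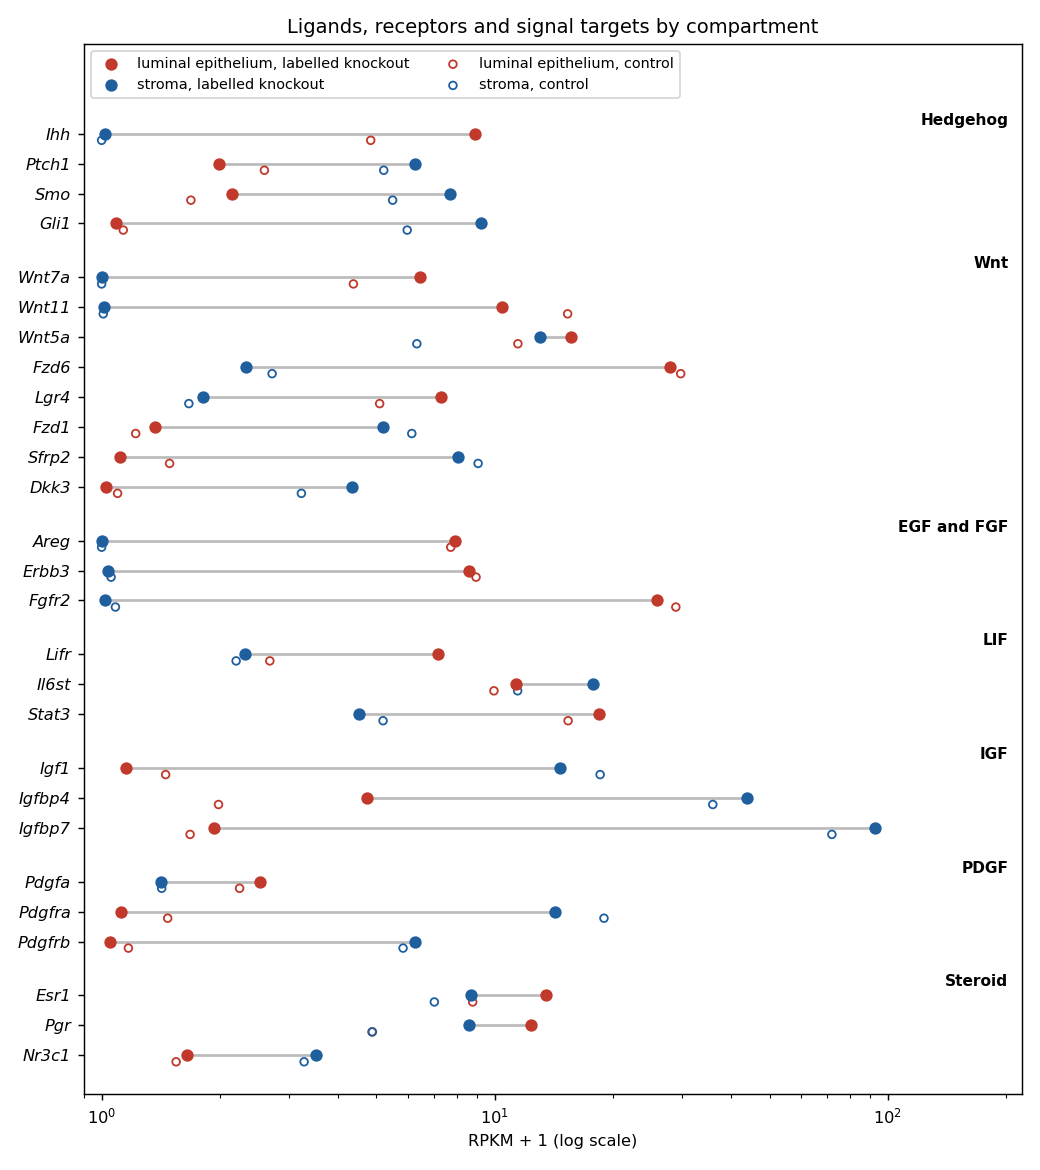
Levels of ligands, receptors and targets as RPKM + 1 on a log axis, with filled points for the libraries labelled knockout, open points for the controls, red for luminal epithelium and blue for stroma. Ihh and its target Gli1 lie on opposite sides, Wnt7a, Wnt11, Areg and Fgfr2 are epithelial, Igf1, Igfbp7 and Pdgfra are stromal, and Esr1, Pgr and Wnt5a are close in both compartments.

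Growth factor receptors lay on both sides. Fgfr2, an FGF receptor, stood at 24.9 and 0.0181 RPKM and 27.9 and 0.084 in the controls, 1114-fold (95% limits 460.1 to 3673) higher in the epithelium. The ligand Fgf1 stood at 3.88 and 0.0224 RPKM, and 3 of 5 kept genes of the list were epithelial and none stromal. The EGF ligand Areg, amphiregulin, stood at 6.93 RPKM and was listed at 0 in the stroma, and Erbb3 at 7.62 and 0.0352 RPKM, whereas Egfr stood at 2.87 and 6.1 RPKM, so the receptors of this family were divided; 4 of 8 kept genes were epithelial and 1 stromal. Pdgfra and Pdgfrb stood at 0.122 and 13.3 RPKM and 0.051 and 5.28 RPKM, and of the 16 kept genes of the PDGF, HGF and stem cell factor list 13 were higher in the stroma and none in the epithelium. The ligand Pdgfa leaned to the epithelium at 1.53 and 0.412 RPKM, a difference of 0.54. That list also holds endothelial genes such as Kdr, at 0.014 and 3.22 RPKM.

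LIF signals ready the epithelium for attachment. The wider list of LIF and interleukin 6 family genes had 6 of 11 kept genes on the epithelial side and 2 on the stromal side. In the controls 3 of 9 kept genes were epithelial and 3 stromal. Jak2, a kinase, stood at 39.9 and 1.07 RPKM, Stat3, a target of Jak kinases, at 17.4 and 3.52 RPKM, and the receptor Lifr at 6.18 and 1.32 RPKM. Lifr stood at 1.68 and 1.2 in the controls, within the threshold there. The shared receptor chain Il6st stood at 10.3 and 16.7 RPKM, a difference of -0.95, and Jak1, another kinase, at 4.2 and 10.6 RPKM. Lif itself was under 1 RPKM, at 0.766 and 0.0822 RPKM. Of 9 kept genes of the insulin-like growth factor list 6 were stromal. Igf1 stood at 0.151 and 13.6 RPKM and the binding proteins Igfbp4, Igfbp5 and Igfbp6 at 3.73 and 42.8 RPKM, 0.158 and 7.68 RPKM and 0.0961 and 13.6 RPKM. The docking protein Irs1 was the 1 on the epithelial side, at 13.4 and 3.08 RPKM.

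BMP and TGF-beta genes were mixed, with 6 of 27 kept members higher in the epithelium, 11 in the stroma and a median of -0.05. The ligand Bmp7 stood at 0.0578 and 3.17 RPKM, the antagonist Fstl1 as given above, and the coreceptor Tgfbr3 at 0.0284 and 4.7 RPKM, all stromal. The receptor Bmpr1b stood at 3.95 RPKM and was listed at 0 in the stroma, while Bmpr1a stood at 4.46 and 3.28 RPKM. The 4 Id genes, inhibitors of differentiation that BMP signals induce, were all epithelial: Id1 stood at 27.8 and 4.29 RPKM, Id2 at 29.5 and 1.94 RPKM, Id3 at 23.1 and 7.8 RPKM and Id4 at 6.67 and 0.0138 RPKM. For Id1 and Id3 the control differed, as given with the comparison of genotypes. Notch genes were mixed too, with Hey2 at 5.06 and 0.265 RPKM, Notch1 at 7.46 and 1.98 RPKM and Notch3, a receptor of pericytes, at 0.381 and 2.76 RPKM.

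The estrogen and progesterone receptors lay within the threshold. Esr1, the estrogen receptor, stood at 12.5 and 7.72 RPKM, a difference of 0.33, and Pgr, the progesterone receptor, at 11.4 and 7.62 RPKM, a difference of 0.22; Pgr was named after its value was seen. Of 16 kept genes of the list 10 lay within the threshold. Fkbp4, a chaperone of the progesterone receptor, stood at 45.3 and 10.8 RPKM and was epithelial. Hsd11b2, which inactivates glucocorticoid, stood at 0.286 and 21.9 RPKM and Nr3c1, the glucocorticoid receptor, at 0.649 and 2.52 RPKM, so enzyme and receptor of glucocorticoid action were both stromal.

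Most prostaglandin genes were epithelial. Of 12 kept genes 8 were higher in the epithelium and 1 in the stroma. Pla2g4a, which releases arachidonic acid, stood at 19.3 and 0.299 RPKM, and the cyclooxygenases Ptgs1 and Ptgs2 at 27.1 and 0.936 RPKM and 3.97 and 0.00443 RPKM. In the controls Ptgs2 stood at 0.496 and 0.0123. Hpgd, the enzyme that degrades prostaglandins, was the stromal one at 0.00722 and 1.16 RPKM. Retinoid genes fell on both sides, with 4 of 13 kept genes epithelial and 3 stromal. Rdh10, which makes retinaldehyde, stood at 27 and 0.811 RPKM, and Cyp26a1, which degrades retinoic acid, at 3.89 and 0.0555 RPKM, while Aldh1a2, which makes retinoic acid, stood at 0.0422 and 7.31 RPKM. Aldh1a1, a relative of Aldh1a2 and also a glandular marker, was epithelial at 4.86 and 0.0968 RPKM. The receptor Rxra had a difference of 0.01. Of 6 kept chemokine genes 5 were stromal. Cxcl12 was listed at 0 in the epithelium and at 4.74 RPKM in the stroma, Cxcl14 stood at 0.447 and 8.84 RPKM, and the mucosal chemokine Cxcl17 was the 1 on the other side at 4.61 and 0.0276 RPKM.

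Ion and water transport genes were found on both sides. Of 17 kept members 8 were epithelial and 5 stromal. The sodium pump subunit Atp1b1 stood at 89.1 and 0.275 RPKM. Aqp11, a water channel, stood at 24.3 and 0.274 RPKM, Car2, a carbonic anhydrase, at 30.9 and 0.799 RPKM, and Aqp1, the water channel of vessels, at 0.218 and 2.92 RPKM. Of 143 kept solute carriers, a family drawn by symbol after values had been seen, 34 were higher in the epithelium (23.8%) and 16 in the stroma (11.2%). The shares of all kept genes were 13.3% and 17.2%. The largest was Slc25a48, a mitochondrial carrier, at 90.9 and 0.0584 RPKM. The glucose carrier Slc2a3, named after its value was seen, stood at 74.7 and 0.691 RPKM.

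Respiration, protein folding and ribosomal protein genes differed little. Of 29 kept respiration genes 27 lay within the threshold, with a median of 0.01, and all 22 folding genes of the endoplasmic reticulum did, with a median of 0.06. Ribosomal protein genes had a median of -0.34, with 31 of 32 within the threshold, and centring on these and the respiration genes would raise every difference by 0.11. Glycolysis genes lay past the threshold more often than these lists did. Of 16 kept genes 5 were epithelial, 31.3% against 13.3% of all kept genes, and 2 were stromal, 12.5% against 17.2%. In the controls 3 of 15 kept genes were epithelial and 2 stromal. With so few members these counts are not read as a trait of the pathway. The epithelial genes include Ldhb at 34.9 and 4.81 RPKM, Hk2 at 5.15 and 0.369 RPKM and the glucose carrier Slc2a1 at 5.55 and 0.958 RPKM. The stromal genes were Pfkm at 0.318 and 1.88 RPKM and Pfkp at 0.0787 and 1.12 RPKM. Of 17 kept cholesterol synthesis genes 2 were epithelial (11.8%, near the 13.3% of all kept genes) and none stromal. The genes at 50 RPKM or more in both libraries that lay closest to 0 were all ribosomal, such as Rps28 at 223 and 181 RPKM.

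Most cell cycle genes were stromal. Of 30 kept members 23 were higher in the stroma and none in the epithelium, with a median of -1.57. Mki67, a marker of cycling cells, stood at 0.411 and 6.26 RPKM and 0.47 and 6.75 in the controls, Ccna2, a cyclin of the S and G2 phases, at 0.536 and 5.25 RPKM, and Mcm5, part of the replication helicase, at 0.356 and 4.47 RPKM. Some members were level between the compartments. Cyclin Ccnd3 stood at 4.27 and 3.31 RPKM, and Tyms, thymidylate synthase, at 5.85 and 3.23 RPKM. Histone genes with Hist symbols, grouped after values had been seen, followed the same side: of 63 kept, 50 were higher in the stroma and none in the epithelium, with a median of -1.81. Many of these genes are near copies of each other, so reads could have been shared among them. Endothelial and leukocyte markers lay on the same side as these genes, with the sums given above, and their part in the values was not tested.

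Immune genes were divided by class. Of 16 kept MHC and antigen processing genes 5 were stromal and 1 epithelial. The MHC class II genes Cd74, H2-Aa and H2-Ab1 stood at 0.96 and 19.8 RPKM, 0.128 and 11 RPKM and 0.173 and 7.57 RPKM, on the side where most leukocyte markers were. The class I genes H2-K1 and H2-D1 stood at 22.9 and 13.7 RPKM and 14.8 and 11.4 RPKM, and their partner B2m at 84.7 and 48.5 RPKM, with differences of 0.39, 0.04 and 0.49. Of 12 kept interferon-stimulated genes 1 was epithelial (8.33%), the RNA sensor Ddx58 at 13.3 and 0.955 RPKM, and 3 were stromal (25.0%). The shares of all kept genes were 13.3% and 17.2%. Of 11 kept immediate early genes, which respond within minutes to stimuli that include tissue handling, 5 were epithelial, led by Junb at 13.1 and 1.01 RPKM and Ier3 at 10.8 and 0.876 RPKM, and 1 was stromal, Myc at 0.216 and 6.14 RPKM.

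Most kept estrogen-responsive genes were epithelial. Of 18 listed members 9 were kept, and 8 of these were higher in the epithelium. Of the 18, 15 were under 0.1 RPKM in the stroma, so most kept members passed the filter through the epithelium alone. Sprr2g was listed at 0 in the stroma and stood at 55.1 RPKM in the epithelium, and Padi2, which converts arginine to citrulline, stood at 23 and 0.532 RPKM. In the control epithelium Sprr2f, Sprr2g, Ltf and Padi2 stood at 6.02, 1.67, 11.1 and 4.29 RPKM, each below the epithelium labelled knockout. The Sprr2 genes are near copies of each other, so their reads could have been shared. The 1 gene of the list on the stromal side was Slpi, an antiprotease, at 0.363 and 1.88 RPKM. All 21 kept progesterone-responsive genes passed the threshold, 12 epithelial and 9 stromal; the list holds known targets of both compartments. Alox15, a lipoxygenase, stood at 32 RPKM and was listed at 0 in the stroma, and Dio2, which activates thyroid hormone, stood at 0.821 and 25.3 RPKM. Of 16 kept secreted and defence genes 11 were epithelial. The defensins Defb6 and Defb5 stood at 59.4 and 13.9 RPKM and were listed at 0 in the other 3 libraries. Lyz2, the lysozyme of macrophages, stood at 0.705 and 21.5 RPKM.

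The same contrast in the control uterus gave a similar picture. There 1107 of 9338 kept genes were higher in the epithelium (11.9%) and 1768 in the stroma (18.9%). Over the 8734 genes kept in both contrasts, the differences had a Pearson r of 0.847 across genes, which are not independent and share the separate scaling of the tables. The difference labelled knockout and that of the control lay at least 1 apart for 433 of these genes (4.96%), and the 5th and 95th percentiles of the gap over all 8734 were -0.63 and 0.80. With 1 library a group the difference between the contrasts could not be tested. Sprr2f was epithelial in both, with differences of 6.29 labelled knockout and 1.86 in the control. Wfdc15b, a protease inhibitor, had 4.17 and 0.67, but was under 1 RPKM in both controls and so was not kept there. In the other direction, the antisense gene Msx1as stood at 2.15 and 0.0353 RPKM labelled knockout and at 39 and 0.115 in the controls; the sources used here do not say whether counting used the strand, so reads of Msx1 and Msx1as cannot be told apart. Interferon-stimulated genes, which respond to viral infection and to interferons, were epithelial in 13 of 22 kept in the control and in 1 of 12 kept labelled knockout. They summed to 172 RPKM in the control epithelium and 47.5 in the epithelium labelled knockout. Ifit1 stood at 0.344 and 0.26 RPKM and at 13.7 and 0.508, and Isg15, a ubiquitin-like protein, at 0.592 and 0.908 RPKM and at 11.7 and 0.989, so neither was kept labelled knockout. Irf7, the transcription factor of the response, stood at 1.63 and 0.777 RPKM and at 16.7 and 1.41, epithelial in the control and within the threshold labelled knockout. MHC and antigen processing genes were higher in sum in both control compartments, at 539 and 401 RPKM against 167 and 146. The class II genes Cd74 and H2-Aa, also leukocyte markers, stood at 6.36 and 52.1 and at 2.86 and 28.6 RPKM in the controls. The part of leukocytes in these values was not tested. Gas6, a ligand of receptor kinases, was stromal in both but stood at 0.352 and 16.7 RPKM and at 0.932 and 3.12.

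Among named genes, 8 were called on the epithelial side labelled knockout and on the stromal side in the control, and none the reverse. Id3 stood at 23.1 and 7.8 RPKM labelled knockout, and it was listed at 0 in the control epithelium with 6.39 RPKM in the control stroma. Id1 stood at 27.8 and 4.29 RPKM and 0.917 and 2.73 in the controls. For both genes the stroma libraries were closer to each other than the epithelial libraries were. The extracellular protein Egflam stood at 11.4 and 2.26 RPKM and at 0.202 and 3.63, the sugar transferase Ggta1 at 18 and 4.16 RPKM and at 0.899 and 5.78, and the Wnt receptor Fzd4 at 5.91 and 0.933 RPKM and at 0.0501 and 1.19. The depth of the control epithelium, 14.4 times below that of the epithelium labelled knockout, moves with all of these, and its part was not tested.

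**Figure D5:**
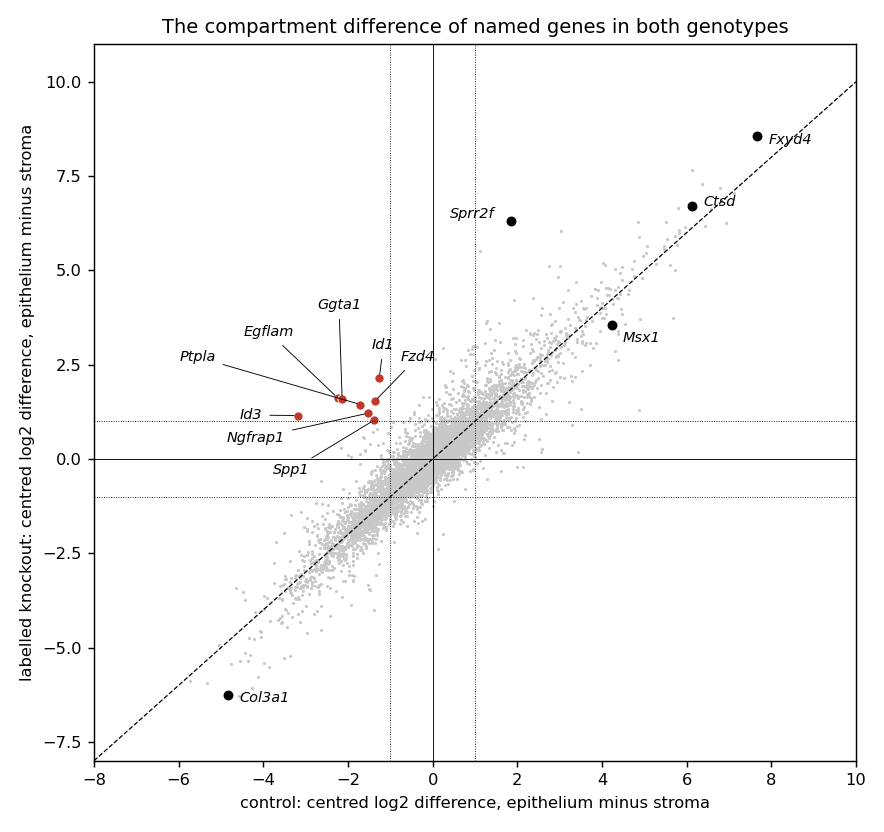
Centred log2 difference, luminal epithelium minus stroma, of each named gene kept in both genotypes, in the control (horizontal) and labelled knockout (vertical), with the dashed line at equal values and dotted lines at 1 and -1. The 8 genes in red lie above 1 labelled knockout and below -1 in the control; Fxyd4 and Ctsd lie within 1 of the dashed line, and Sprr2f lies 4.44 above it.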

How the data were processed

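Per the labels' protocols, RNA from laser-captured cells was made into stranded total RNA libraries after ribosomal depletion. The submitters' processing notes name, for the mm9 build, Cufflinks 2.0.2, TopHat2 2.0.5, TopHat and CASAVA 1.8.2; settings and the use of strand in counting are not given in the sources used here. RPKM values were deposited by the authors, per the file headers, in 1 table for the epithelium and 1 for the stroma, each with a control and a labelled-knockout column and each scaled on its own. Depth was estimated from the steps between low RPKM values and transcript lengths less 200 bases; 66.3% to 67.9% of low values lay within 0.2 of a whole read, where 40% would if spread evenly, so read numbers are approximate.

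The tables were joined on gene name with Python 3.11.15, numpy 2.4.6, pandas 2.3.3 and scipy 1.17.1. Differences used a pseudocount of 1 RPKM, which understates those of low genes, a minimum of 1 RPKM in either library and centring on the median log2 difference of genes at 1 RPKM or more in both. The scripts were tested on simulated data. With 1 library a group no test was run. Alternatives changed the pseudocount, the minimum, the centring and the threshold.

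The 45 gene lists, the 10 marker lists and the comparison were chosen with earlier results of these data known. Genes named were the 20 with the largest difference on each side at 10 RPKM or more, the 10 most abundant of each library, up to 5 at each end and 2 nearest 0 of each list with those listed at 0 on 1 side, the markers, Msx1 and Msx2, the 10 at each end of the difference between genotypes and the 5 most even at 50 RPKM or more, small RNA genes and unnamed models left out. Other names are given as named after their values were seen. Promoter sequences are from RefSeq (GRCm38.p6); gene positions are those of the tables (mm9). Every value column belongs to a labelled library. Some genes of the lists are counted but not reported here by name.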

Additional observations from a re-analysis of the deposited data

Results flagged for a closer look

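For 8 named genes the compartments changed places between the genotypes: each was at least 1 higher in the epithelium on the centred log2 scale in the libraries labelled knockout and at least 1 higher in the stroma in the controls. With 1 library in each group this difference was not tested. The labelled-knockout difference exceeded that of the control by 4.34 for Id3 and 3.40 for Id1, which encode inhibitors of helix-loop-helix transcription factors. It did so by 3.87 for Egflam, a matrix protein, 3.71 for Ggta1, which adds galactose to surface glycans, and 2.90 for Fzd4, a Wnt receptor. The remaining excesses were 3.15 for Ptpla, an enzyme of fatty acid elongation, 2.74 for Ngfrap1, an adaptor of the neurotrophin receptor, and 2.41 for Spp1, osteopontin.

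In all 8 the epithelial libraries were further apart than the stroma libraries. Ptpla stood at 9.28 RPKM in the epithelium labelled knockout and was listed at 0 in the control epithelium, while the stroma held 2.07 and 1.65 RPKM. Ngfrap1 stood at 13.8 and 4.16 RPKM labelled knockout and at 1.34 and 4.49 in the controls, and Spp1 at 3.06 and 0.617 RPKM and at 0.117 and 1.37. At the estimated depth of 6.31 M reads, 1 read on a transcript of 1 kilobase was worth 0.158 RPKM in the control epithelium, against 0.0110 in the epithelium labelled knockout, so the control values of Fzd4 and Spp1 rest on few reads.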

How the results depend on the processing

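No paired analysis was possible because each group had 1 library. No named gene past the threshold changed sign under any alternative in which it had a value. Among 494 named genes 149 fell under the threshold with a pseudocount of 5 RPKM and 14 without centring. The 494 include genes that lay within the threshold from the start, so of those past it a larger share fell under. Of the counts over all genes, a pseudocount of 5 RPKM gave 560 epithelial and 378 stromal, a minimum of 5 RPKM gave 893 and 456, and a threshold of 2 gave 463 and 505. List medians under a pseudocount of 5 RPKM came to 0.65 for tight junction, 0.66 for desmosome, 0.36 for mucin, 0.68 for epithelial transcription, 0.58 for FGF, 0.32 for LIF, 0.57 for prostaglandin, 0.67 for progesterone-responsive and 0.69 for secreted genes. On the stromal side they came to -0.78 for transcription factors, -0.57 for Hox, -0.97 for elastic fibre, -0.70 for basement membrane, -0.60 for Wnt antagonists, -0.72 for hedgehog, -0.51 for PDGF, -0.67 for chemokines, -0.68 for cell cycle genes and -0.61 for leukocyte markers. With no minimum, where genes near 0 in both libraries take a difference of about -0.30 from the centring, 4 medians changed sign: claudins -0.26, mucin -0.25, FGF -0.32 and LIF -0.26. Others came to 0.55 for desmosome, 0.55 for epithelial transcription, 0.11 for prostaglandin, 0.34 for estrogen-responsive, 0.56 for progesterone-responsive and 0.40 for secreted genes, and to -0.36 for Hox, -0.72 for Wnt antagonists, -0.73 for hedgehog, -0.55 for IGF, -0.43 for chemokines and -0.997 for leukocyte markers. Medians that passed 1 were, with a pseudocount of 0.1 RPKM, adherens 1.06, other homeobox 1.03, Wnt receptors 1.58 and EGF 1.73; with a minimum of 5 RPKM, EGF 1.33, semaphorin 1.42, ion transport 3.32 and immediate early 1.49; and without centring, adherens 1.05, other homeobox 1.05, Wnt receptors 1.16, EGF 1.27 and ion transport 1.03. EGF came to 1.08 both after scaling to library sums without the 50 most abundant genes and after centring on ribosomal and respiration genes. Leaving out centring raised all differences by 0.30. Leaving out genes marked as failed or too deep was chosen after seeing the data and gave 1265 and 1647.

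The main limits are 1 library a group, tables scaled apart, and values that cover counting error at best. A stromal level of 0 allows up to 3 reads, so folds against a listed 0 were not given. The control epithelium was the shallowest library, and low control values are the least certain.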
